A study of Mus musculus with 6 samples.

Results

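The Foxa family consists of Foxa1, Foxa2 and Foxa3, 3 of the 18448 genes in a table of RNA sequencing counts from mouse jejunal organoids. The members were taken by gene symbol, and the family was chosen by values of the 4OHT and DMSO comparison that were already known, so the members' own differences are given as descriptions without p-values. Organoids are epithelial cultures grown from intestinal crypts. All libraries came from C57BL/6 organoids with the genotype Villin-CreERT2; Hnf4a flox/flox, in which a tamoxifen-activated Cre recombinase is driven by the promoter of villin, a gene of the gut epithelium. In the 4OHT group (n = 3) the organoids received 0.5 µM 4-hydroxytamoxifen for 24 hours to delete Hnf4a, and in the DMSO group (n = 3) they received the vehicle. Both groups were then split, supplied with 200 ng/mL recombinant mouse Wnt3A and harvested on day 2 after the passage. Exposure to 4OHT, activity of Cre and loss of Hnf4a occurred together in the 4OHT group and cannot be told apart. The labels do not state that the replicates are separate animals or organoid lines, so the spread between libraries may be technical.

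FOXA proteins are transcription factors with a winged-helix (forkhead) DNA-binding domain. They are called pioneer factors because they can bind their sites in closed chromatin and make them accessible to other factors, among them the nuclear receptor HNF4A, with which they share many regulatory regions in liver. In the mouse intestine Foxa1 and Foxa2 are known for their role in goblet cells and in enteroendocrine L and D cells. Foxa3 is known mainly for metabolic genes in liver.

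The 3 genes lie on different chromosomes (GRCm38, GENCODE M21), all on the minus strand, and no annotated gene overlapped any of them. Foxa1 (ENSMUSG00000035451) spans chr12:57540628-57546916 with 3.33 kb of merged exons. Foxa2 (ENSMUSG00000037025) spans chr2:148042877-148046969 with 2.37 kb, and Foxa3 (ENSMUSG00000040891) spans chr7:19013284-19023538 with 2.04 kb. Promoter windows of 250 bases before to 50 bases after each start were read from RefSeq (GRCm38.p6) to set the gene with the higher level in 4OHT libraries beside its paralogues. Capitals mark every match, on either strand, to one of 7 motifs. The FOXA core was searched in the form TGTTTAC, then in the variant form TATTTAC, and finally as TGTTTGC. The HNF4 element was searched as CAAAGTCCA and, in a second form, as CAAAGGTCA. The TATA box was searched as TATAAA, and the box bound by NF-Y as CCAAT.

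The windows, read 5′ to 3′ on the strand of the gene, lie at chr12:57546062-57546361 for Foxa1, chr2:148046920-148047219 for the outermost of 3 annotated Foxa2 starts, and chr7:19023490-19023789 for Foxa3.
Foxa1: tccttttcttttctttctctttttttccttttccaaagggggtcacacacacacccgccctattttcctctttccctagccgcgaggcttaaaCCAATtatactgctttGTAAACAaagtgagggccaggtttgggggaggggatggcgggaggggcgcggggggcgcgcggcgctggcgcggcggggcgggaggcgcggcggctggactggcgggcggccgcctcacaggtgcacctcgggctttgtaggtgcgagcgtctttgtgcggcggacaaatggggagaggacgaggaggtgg
Foxa2: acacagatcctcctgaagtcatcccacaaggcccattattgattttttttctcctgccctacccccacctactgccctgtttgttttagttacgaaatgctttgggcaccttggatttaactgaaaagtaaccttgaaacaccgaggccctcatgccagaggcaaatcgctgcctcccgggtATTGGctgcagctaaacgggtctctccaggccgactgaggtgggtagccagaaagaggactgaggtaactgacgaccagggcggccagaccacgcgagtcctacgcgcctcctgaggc
Foxa3: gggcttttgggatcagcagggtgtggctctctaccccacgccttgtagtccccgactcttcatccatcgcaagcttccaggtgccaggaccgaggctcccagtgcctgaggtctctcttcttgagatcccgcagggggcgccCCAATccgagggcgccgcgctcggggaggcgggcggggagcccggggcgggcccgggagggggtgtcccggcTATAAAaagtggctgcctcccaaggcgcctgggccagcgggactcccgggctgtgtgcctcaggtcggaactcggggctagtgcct

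The Foxa1 window held 1 FOXA core match, read as GTAAACA on the gene's strand at positions -141 to -135 from the RefSeq start, and a CCAAT at -157 to -153. The core TGTTTAC occurred in 3.65% of 32851 RefSeq windows of the same length, the form TATTTAC in 3.04% and the form TGTTTGC in 5.07%. At least one of these 3 forms occurred in 11.19% of the windows. None of them was found in the windows of Foxa2 or Foxa3. The Foxa2 window above held CCAAT on the opposite strand at -68 to -64, and the window of its innermost start held TATAAA, also on the opposite strand. The Foxa3 window held TATAAA at -36 to -31 and CCAAT at -108 to -104. TATAAA occurred in 13.62% of all windows and CCAAT in 37.41%. Neither of the HNF4 forms was found in any Foxa window, and they occurred in 0.47% and 0.48% of all windows. The matches do not overlap each other, and they describe letters in these windows and no measured binding. The RefSeq start of Foxa1, at base 57546111, lies inside the GENCODE gene, and the counts do not tell which start was used.

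Each library held between 31537100 and 40276242 counts. The filter on low counts left 14544 genes, all 3 Foxa genes among them. Levels are in CPM, read counts scaled to a common library size with TMM factors of edgeR. Hnf4a, the targeted gene, fell to 447 ± 30.6 CPM in 4OHT libraries, against 902 ± 103 CPM in DMSO libraries (SD, n = 3 each). This was a log2 fold change of -1.01 with an SE of 0.0997, at an edgeR adjusted p of 0.0124 (1.11e-16 to 0.0951 over the alternatives). Significance was lost without 4OHT replicate 1, 2 or 3 or DMSO replicate 1 or 2, with adjusted p from 0.0572 to 0.0951, and the log2 fold change then ran from -1.07 to -0.98. The deleted exons are not given in the sources used here, so the whole-gene count does not measure recombination. On the first principal component, with 48.7% of the variance, DMSO replicate 3 lay at 48, far from DMSO replicates 1 and 2 at 3 and 5.9. Counts of called genes and the values that it moves are therefore also given without it.

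Foxa1 was the most abundant Foxa transcript and all of its 4OHT values exceeded all of its DMSO values. It measured 121, 134 and 118 CPM in 4OHT replicates 1, 2 and 3, against 87.9, 95.4 and 70.6 CPM in DMSO replicates 1, 2 and 3. The lowest 4OHT library (replicate 3) was above the highest DMSO library (replicate 2), so the groups did not overlap. The means were 124 ± 8.47 CPM in 4OHT and 84.7 ± 12.7 CPM in DMSO (SD, n = 3 each), with a log2 fold change of 0.55 (SE 0.115), a 1.47-fold higher level. Of all tested genes, 22.6% had groups that did not overlap, 12.5% with 4OHT higher, and 5.62% had a log2 fold change at least that of Foxa1. In bulk RNA, more cells that express a gene and more transcript per cell cannot be told apart.

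Libraries with the same replicate number varied together and are treated as pairs, and Foxa1 was higher in 4OHT in 3 of 3 pairs. The ratio of 4OHT to DMSO was 1.37, 1.4 and 1.67 in pairs 1, 2 and 3. The largest ratio belonged to pair 3, where DMSO replicate 3 was the lowest of all 6 libraries. Among all tested genes, 25.3% were higher in all 3 pairs. Without DMSO replicate 3 the log2 fold change of Foxa1 was 0.43 (SE 0.0728), and without replicate 3 of both groups it was 0.47 (SE 0.0694).

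Foxa2 was the least abundant member and its groups overlapped. It measured 20.8, 18.5 and 17 CPM in 4OHT replicates 1, 2 and 3, against 20.7, 21.6 and 19.5 CPM in DMSO replicates 1, 2 and 3. 4OHT replicates 2 and 3 were below every DMSO library, while 4OHT replicate 1 was within the DMSO range. The means were 18.8 ± 1.91 CPM in 4OHT and 20.6 ± 1.02 CPM in DMSO (SD, n = 3 each), with a log2 fold change of -0.14 (SE 0.0947).

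Foxa3 had nearly equal means in both groups. It measured 49.1, 36.8 and 38.6 CPM in 4OHT replicates 1, 2 and 3, against 43.1, 40.8 and 40.8 CPM in DMSO replicates 1, 2 and 3. The 4OHT libraries lay on both sides of the DMSO libraries, with replicate 1 above and replicates 2 and 3 below all of them. The means were 41.5 ± 6.64 CPM in 4OHT and 41.6 ± 1.29 CPM in DMSO (SD, n = 3 each), with a log2 fold change of 0.00 (SE 0.112). Its sign depended on the libraries used, from -0.15 without 4OHT replicate 1 to 0.08 without 4OHT replicate 2.

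**Figure D1:**
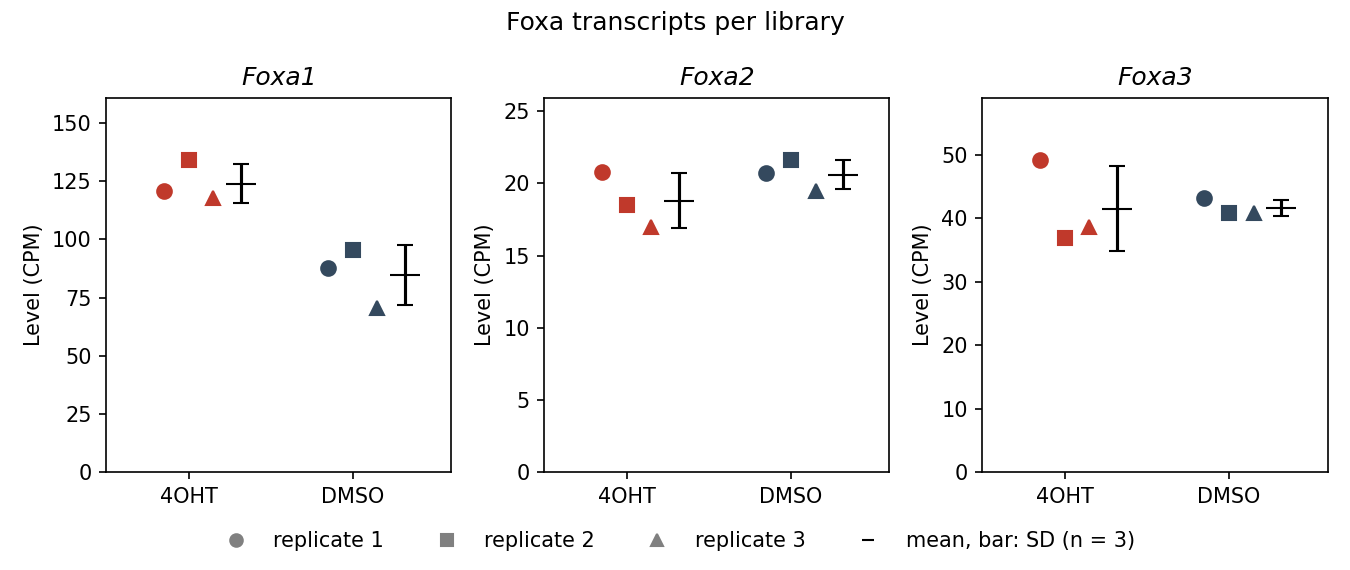
Level of Foxa1, Foxa2 and Foxa3 in CPM (vertical axes, each from 0) in 3 4OHT and 3 DMSO libraries, with symbols for the replicate number and the mean and SD of each group beside them. The 4OHT libraries of Foxa1, from 118 to 134 CPM, sit above the DMSO libraries, from 70.6 to 95.4 CPM, while the groups overlap for Foxa2 and Foxa3.

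The members were counted deeply enough that counting error was small for Foxa1. Foxa1 had 2174 to 4758 counts per library, Foxa2 601 to 792 and Foxa3 1257 to 1715. Counting error alone was 1.45% to 2.14% of the level for Foxa1, 3.55% to 4.08% for Foxa2 and 2.41% to 2.82% for Foxa3. The coefficient of variation between libraries was 6.83% in 4OHT and 15% in DMSO for Foxa1, and 10.2% in 4OHT and 4.95% in DMSO for Foxa2. For Foxa3 it was 16% in 4OHT and 3.1% in DMSO, the DMSO value being close to counting error.

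As a description, Foxa1 was called higher (adjusted p under 0.05 over all genes) in 4 of 15 fits, and Foxa2 and Foxa3 in 0 of 15. For Foxa1 these were edgeR with the replicate number as a block, DESeq2, edgeR without DMSO replicate 3 and edgeR without replicate 3 of both groups. In edgeR without a block 0 of the 3 genes were called, where 0.908% of all genes were called and 0.701% were called higher. The share of all genes called higher was 3.99% with the block, 3.62% in DESeq2, 1.71% without DMSO replicate 3 and 2.59% without replicate 3 of both groups. In the 10 other fits it was 0.0203% to 0.708%. With the block the log2 fold changes were 0.56 (SE 0.0651) for Foxa1, -0.14 (SE 0.0742) for Foxa2 and -0.01 (SE 0.0763) for Foxa3. In the authors' deposited table the log2 fold changes were 0.551, -0.137 and -0.003 for the same genes.

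**Figure D2:**
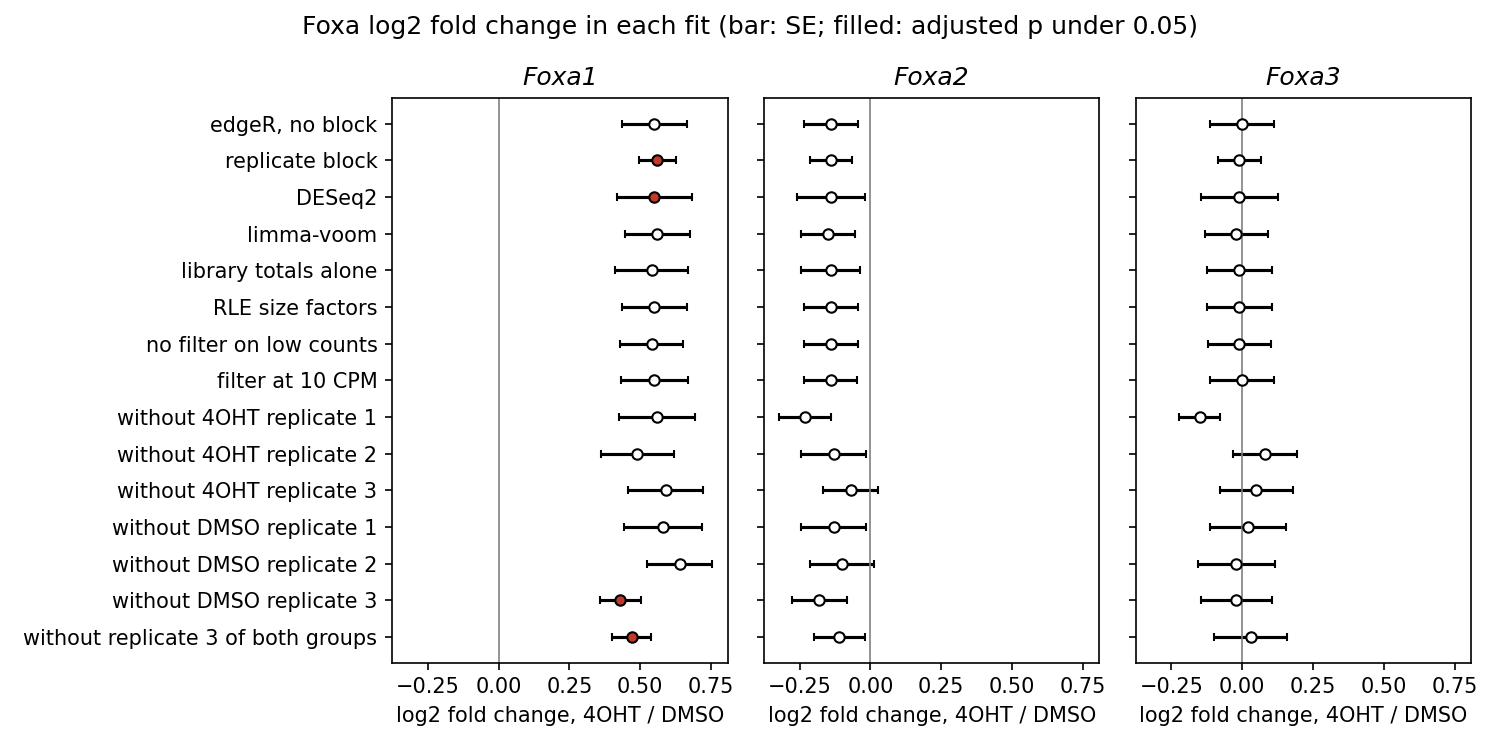
Log2 fold change of 4OHT over DMSO (horizontal axis, bar: SE) for each Foxa gene in 15 fits, named down the side, with filled points where the gene was called. Foxa1 lies between 0.43 and 0.64 in all 15, Foxa2 between -0.23 and -0.07, and Foxa3 on both sides of 0.

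Divided by exon length, the order of the members was Foxa1, Foxa3, Foxa2 in every library. In CPM per kb, Foxa1 averaged 37.3 ± 2.55 in 4OHT and 25.4 ± 3.82 in DMSO (SD, n = 3 each). Foxa3 averaged 20.4 ± 3.26 in 4OHT and 20.4 ± 0.633 in DMSO, and Foxa2 averaged 7.91 ± 0.806 in 4OHT and 8.69 ± 0.43 in DMSO. Foxa1 and Foxa3 were closest in DMSO replicate 3, at 21.2 and 20 CPM per kb, and farthest apart in 4OHT replicate 2, at 40.2 and 18.1. In DMSO the lowest Foxa1 library was only just above the highest Foxa3 library (21.1), so these neighbours were barely separated there. Among 14487 tested genes with a length, Foxa1 was at percentile 89.5 of the levels per kb in 4OHT and 84.1 in DMSO, Foxa3 at 80 and 80.1, and Foxa2 at 58.7 and 61.

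The ratio of members within a library does not depend on how libraries are scaled. Foxa1 made up 52.5%, 60.8% and 57.5% of the summed Foxa level per kb in 4OHT replicates 1, 2 and 3, against 46.9%, 49.6% and 42.9% in DMSO replicates 1, 2 and 3. Every 4OHT share was above every DMSO share, and the means were 56.9% ± 4.18 in 4OHT and 46.5% ± 3.37 in DMSO (SD, n = 3 each). Foxa2 made up 11.7% to 12.7% in 4OHT and 15.5% to 16.6% in DMSO, again without overlap. Foxa3 made up 27.3% to 34.8% in 4OHT and 34.6% to 40.5% in DMSO, and these ranges overlapped. The summed level of the family was 65.6 ± 3.87 CPM per kb in 4OHT and 54.5 ± 4.42 CPM per kb in DMSO. The shares rest on the same contrast as the levels and are no further evidence for it.

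**Figure D3:**
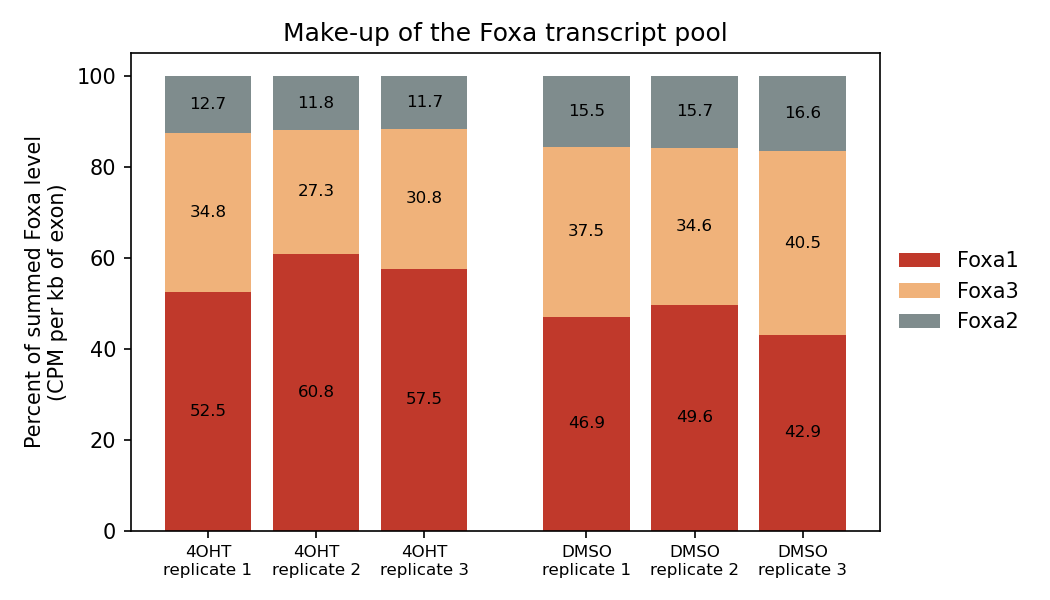
Share of Foxa1, Foxa3 and Foxa2 in the summed Foxa level of each library (vertical axis, percent of CPM per kb of exon), with 4OHT libraries on the left and DMSO libraries on the right. The Foxa1 share is 52.5% to 60.8% in 4OHT and 42.9% to 49.6% in DMSO.

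The members differed in how replicate 3 stood to replicates 1 and 2 of its group. The log2 level of Foxa1 in replicate 3, minus the mean of replicates 1 and 2, was -0.11 in 4OHT and -0.37 in DMSO. Foxa2 was at -0.21 in 4OHT and -0.11 in DMSO, and Foxa3 at -0.14 in 4OHT and -0.04 in DMSO. All 6 values were below 0. Of all tested genes, 55.1% deviated more than Foxa1 did in 4OHT replicate 3, and 26.3% in DMSO replicate 3.

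Other forkhead genes give the family its setting, and none of them passed the test. The forkhead family shares the DNA-binding domain of FOXA proteins but has varied roles, such as cell division for Foxm1 and insulin-regulated transcription for Foxo1. The counts covered 20 further forkhead genes, 15 of them abundant enough to test. The number called was 0 in edgeR with or without the block, in DESeq2 and in limma-voom, while the unadjusted p was under 0.05 for 1 gene, higher in 4OHT. Their median log2 fold change was -0.02, beside 0.00 for all tested genes, with 7 above and 8 below 0. Per kb, Foxa1 ranked second of 18 tested forkhead genes in both groups, Foxa3 ranked 3 and Foxa2 ranked 9. Foxp4 ranked first, at 38.9 ± 1.6 CPM per kb in 4OHT and 41 ± 1.32 in DMSO. Foxk2, next below Foxa3, overlapped it in 4OHT (18.3 to 20.3 beside 18.1 to 24.1) and lay below it in DMSO (17.8 to 18.1 beside 20 to 21.1). Foxa2 overlapped Foxo4 and Foxo3, its neighbours in the order, in 4OHT (7.17 to 8.77 beside 8.19 to 9.34 and 6.61 to 8.44). In DMSO it overlapped Foxo4 (8.24 to 9.1 beside 8.25 to 10.1) and lay above Foxo3 (6.44 to 7.54). The range of Foxa1 overlapped that of Foxp4 in 4OHT (35.4 to 40.2 beside 37.1 to 39.9) and lay below it in DMSO (21.2 to 28.7 beside 39.6 to 42.3).

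Over all libraries, Foxc1 and Foxq1 had larger log2 fold changes than Foxa1, with larger errors. Foxc1, best known from mesenchyme, measured 1.29, 1.38 and 1.08 CPM in 4OHT replicates 1 to 3, against 0.528, 0.817 and 0.715 CPM in DMSO (log2 fold change 0.86, SE 0.231, edgeR adjusted p = 0.149, and 0.081 to 0.394 over the alternatives). Foxq1 measured 95.5, 78.6 and 66.9 CPM in 4OHT, against 69.3, 60.6 and 24.4 CPM in DMSO (0.64, SE 0.353, edgeR adjusted p = 0.452, and 0.0864 to 0.752 over the alternatives). As with Foxa1, DMSO replicate 3 was the lowest library for Foxq1. Without it the log2 fold change of Foxq1 was 0.30 (SE 0.143), below that of Foxa1 at 0.43. Without replicate 3 of both groups Foxq1 was at 0.42 (SE 0.106) and Foxa1 at 0.47. Foxj2 (0.14), Foxk2 (0.09) and Foxp4 (-0.08) were the other forkhead genes with the smallest p, with edgeR adjusted p of 0.561, 0.527 and 0.597.

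**Figure D4:**
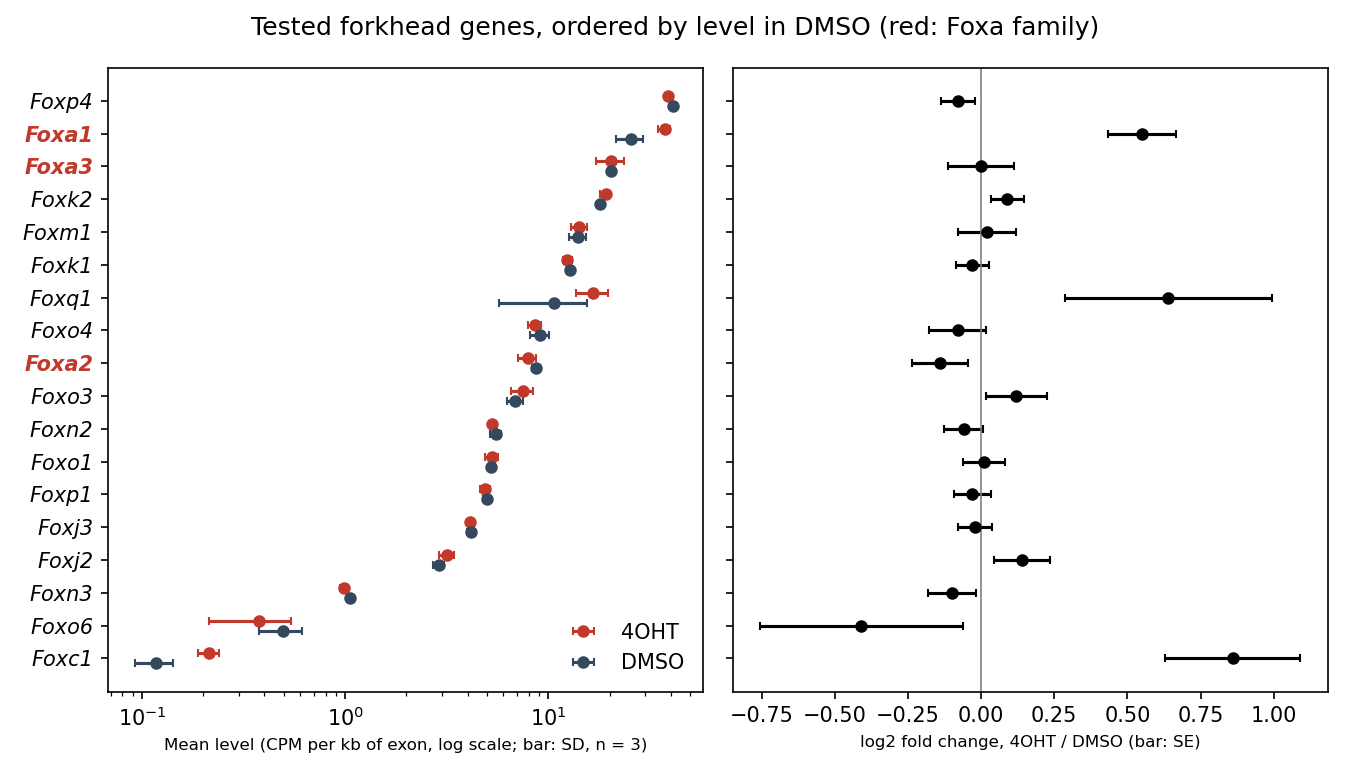
Left, mean level of 18 tested forkhead genes (CPM per kb of exon, log axis, bar: SD of 3 libraries) in 4OHT and DMSO. Right, their log2 fold change of 4OHT over DMSO (bar: SE), where Foxa1 is at 0.55 and most others lie near 0.

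Genes reported to need Foxa1 and Foxa2 in mouse gut mostly had higher means in 4OHT, but 0 of 6 passed the test without the block. The list holds Muc2, the main secreted mucin of goblet cells, the hormone genes Gcg, Pyy and Sst, and the enteroendocrine factors Isl1 and Pax6. The count was 0 in edgeR, DESeq2 and limma-voom alike. An unadjusted p under 0.05 was reached by 2 genes, both higher in 4OHT. The share of all tested genes at that level was not counted, so this count has no background beside it. The median log2 fold change of the 6 genes was 0.54, beside 0.00 for all tested genes. Without DMSO replicate 3 the median of the 6 genes was 0.64. With the replicate block 1 rose, and 2 rose without DMSO replicate 3 or without replicate 3 of both groups.

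Muc2 was the gene that rose with the block. It measured 149, 130 and 214 CPM in 4OHT replicates 1, 2 and 3, against 68.8, 44 and 159 CPM in DMSO replicates 1, 2 and 3. Replicate 3 was the highest library of each group, and the groups overlapped, while 4OHT was higher in all 3 pairs. Its log2 fold change was 0.86 (SE 0.449, edgeR adjusted p = 0.426) without the block and 1.03 (SE 0.2, edgeR adjusted p = 0.0422) with it, and 1.54 (SE 0.26, edgeR adjusted p = 0.0386) without DMSO replicate 3. Over all alternatives the adjusted p ran from 0.0166 to 0.654.

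The hormone genes had low levels and did not pass with the block. Gcg, which encodes proglucagon, measured 5.58, 4.55 and 5.34 CPM in 4OHT, against 3.5, 2.99 and 4.55 CPM in DMSO (log2 fold change 0.49, SE 0.185, edgeR adjusted p = 0.281). Pyy, which encodes peptide YY, measured 2, 1.69 and 2.11 CPM in 4OHT, against 1.61, 1.01 and 1.23 CPM in DMSO (0.59, SE 0.222, edgeR adjusted p = 0.281). The groups did not overlap for Gcg, whose closest libraries round to the same value, or for Pyy. Sst, which encodes somatostatin, measured 2.26, 1.8 and 2.82 CPM in 4OHT, against 0.584, 0.898 and 2.11 CPM in DMSO, where replicate 3 was within the 4OHT range (0.96, SE 0.447, edgeR adjusted p = 0.379, and 0.0482 without DMSO replicate 3). Isl1 stayed between 0.253 and 0.682 CPM, with a log2 fold change of -0.08, and Pax6 between 0.381 and 1.14 CPM, with a log2 fold change of 0.00. Over the alternatives the adjusted p ran from 0.0932 to 0.615 for Gcg, from 0.117 to 0.584 for Pyy and from 0.0445 to 0.636 for Sst.

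Goblet cell markers, of which Muc2 is one, also had higher means in 4OHT. Their summed level was 4810, 3770 and 6310 CPM in 4OHT replicates 1, 2 and 3, against 2370, 2340 and 4370 CPM in DMSO replicates 1, 2 and 3. All 11 tested markers had a positive log2 fold change, with a median of 0.58, and of 0.78 without DMSO replicate 3. Without the block 0 were called by edgeR, 3 rose in DESeq2 and 0 in limma-voom, and 4 had an unadjusted p under 0.05, all higher in 4OHT. With the block 7 rose, among them Zg16 (log2 fold change 1.65, edgeR adjusted p = 0.00192, up to 0.331 over the alternatives) and Clca1 (1.31, edgeR adjusted p = 0.00581, up to 0.309). Both encode secreted products of goblet cells and were named after their values were seen. Without DMSO replicate 3 the count was 6, and without replicate 3 of both groups it was 8. In replicate 3 of each group the goblet sum was the highest of its group while Foxa1 was the lowest of its group. The part of goblet cells in the Foxa1 difference was not tested.

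The enteroendocrine list includes 5 of the 6 gut targets, all but Muc2. Its summed level was 338, 262 and 360 CPM in 4OHT, against 260, 236 and 335 CPM in DMSO, and the groups overlapped. Of 17 tested, 0 were called without the block by edgeR, DESeq2 or by limma, 2 had an unadjusted p under 0.05 (Gcg and Pyy, already counted among the gut targets), and 1 rose with the block. This was Chga, which encodes chromogranin A (edgeR adjusted p = 0.0478, up to 0.703 over the alternatives) and was named after its values were seen. The median log2 fold change of the 17 genes was 0.13, with 10 above and 7 below 0. Mesenchymal markers summed to 1.12 to 1.89 CPM in 4OHT and 0.973 to 1.95 CPM in DMSO, and immune markers to 5.35 to 6.77 CPM in 4OHT and 4.76 to 5.46 CPM in DMSO, beside 6240 to 8700 CPM in 4OHT and 7160 to 11300 CPM in DMSO for enterocyte markers. Of the mesenchymal list 1 of 10 genes and of the immune list 3 of 8 were abundant enough to test, and 0 were called by edgeR, DESeq2 or limma, with 0 mesenchymal genes and 1 immune gene at an unadjusted p under 0.05. The part of these cell types in the Foxa values was not tested.

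Classic liver genes with FOXA sites mostly had lower means in 4OHT. Of 14 listed genes 11 were in the table and 7 were abundant enough to test. Tat, Serpina1a and Serpina1d are not analysed here. Of the 7, 0 passed in edgeR and 0 in limma-voom, 1 was called lower in DESeq2, and 2 had an unadjusted p under 0.05, both lower in 4OHT. The median log2 fold change was -0.45, with 6 of 7 below 0, and with the block 2 fell, where 3.0% of all genes were called lower. Without DMSO replicate 3, and without replicate 3 of both groups, 1 fell (Ttr). Of all genes, 0.587% and 1.51% were called lower in these fits, and 1.94% in DESeq2. The median of the liver list without DMSO replicate 3 was -0.33, over the 8 genes tested in that fit. Enterocyte markers had lower means beside this list, with 15 of 16 log2 fold changes below 0 and a median of -0.53. Without DMSO replicate 3 that median was -0.13, with 13 of 16 below 0. The part of enterocytes in the values of the liver genes was not tested. Nor was that of Hnf4a, the targeted gene, whose protein shares many regulatory regions with FOXA proteins in liver. Serpina1 genes resemble each other so closely that their counts are uncertain.

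Ttr and Apob were the genes that fell with the block. Ttr, which encodes the thyroid hormone carrier transthyretin and was the gene through which FOXA proteins were first recognised, measured 1.75, 0.927 and 1.41 CPM in 4OHT, against 4.14, 4.16 and 9.62 CPM in DMSO. The groups did not overlap, and DMSO replicate 3 was the highest. Its log2 fold change was -2.13 (SE 0.411, edgeR adjusted p = 0.0717) without the block, -2.07 (SE 0.299, edgeR adjusted p = 0.0228) with it and -1.61 (SE 0.251, edgeR adjusted p = 0.0311) without DMSO replicate 3, and the adjusted p ran from 1.13e-05 in DESeq2 to 0.225 over the alternatives.

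Apob, which encodes the structural protein of chylomicrons, measured 646, 532 and 743 CPM in 4OHT, against 861, 709 and 1051 CPM in DMSO, and was lower in 4OHT in all 3 pairs. Its log2 fold change was -0.45 (SE 0.171, edgeR adjusted p = 0.287) without the block and -0.44 (SE 0.0518, edgeR adjusted p = 0.0143) with it, and the adjusted p ran up to 0.561. G6pc, the last enzyme of gluconeogenesis, and Slc2a2, the GLUT2 glucose transporter gene, did not pass with or without the block. G6pc measured 14.1, 7.9 and 19 CPM in 4OHT, against 20, 15 and 72.7 CPM in DMSO, and Slc2a2 measured 14.4, 10.8 and 20 CPM in 4OHT, against 18.7, 18.4 and 51.2 CPM in DMSO. In both genes DMSO replicate 3 was by far the highest library. Their log2 fold changes were -1.39 (SE 0.625) and -0.96 (SE 0.437), and without DMSO replicate 3 they were -0.36 (SE 0.323) and -0.30 (SE 0.224). Pck1, a gluconeogenic enzyme gene, was at 0.916, 0.899 and 1.51 CPM in 4OHT, against 0.472, 0.49 and 1.36 CPM in DMSO, with overlapping groups.

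**Figure D5:**
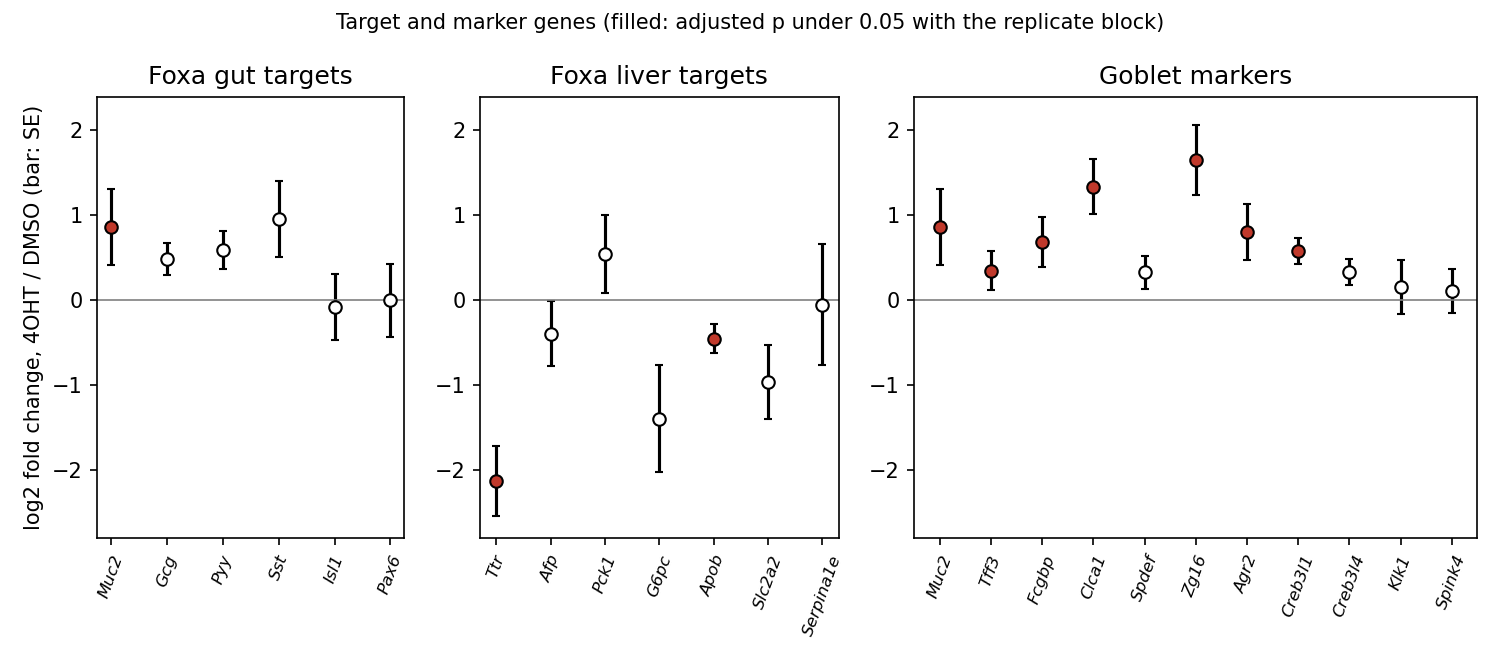
Log2 fold change of 4OHT over DMSO without the replicate block (vertical axis, bar: SE) for tested Foxa gut targets, Foxa liver targets and goblet markers, with filled points for genes called with the replicate block. Filled points lie above 0 in the gut and goblet lists (7 of 11 goblet markers, Muc2 included) and below 0 in the liver list (Ttr and Apob).

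Of the factors that act with FOXA proteins, only Hnf4a passed the test, and it is the gene targeted by the design. Some Groucho corepressors of the TLE family bind FOXA proteins. Of 6 tested genes of the family 0 were called in any fit, and 0 were at an unadjusted p under 0.05. Their median log2 fold change was -0.03. Tle6 was at 4.81, 6.41 and 6.6 CPM in 4OHT, against 7.03, 7.43 and 7.54 CPM in DMSO (log2 fold change -0.30, edgeR adjusted p = 0.388, and 0.172 to 0.685 over the alternatives). Tle1 (-0.03), Tle2 (0.30), Tle3 (0.09) and Tle4 (-0.04) had edgeR adjusted p from 0.6 to 0.847.

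Among 19 tested endoderm transcription factors, the targeted gene Hnf4a alone fell and the 18 others did not pass. The median log2 fold change of the list was -0.12. Klf4, a factor of differentiating epithelium, measured 32.9, 32.2 and 37.1 CPM in 4OHT, against 27, 24.1 and 32.9 CPM in DMSO (log2 fold change 0.28, edgeR adjusted p = 0.343, and 0.0577 to 0.609 over the alternatives). Cdx1 (-0.18) and Pdx1 (-0.40) had edgeR adjusted p of 0.386 and 0.409. Onecut1, Sox2 and Sox17 are not analysed here.

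The nearest annotated neighbours of the Foxa genes with counts did not pass the test. Ttc6, which lies 17.2 kb from Foxa1 and is listed under the symbol 4921506M07Rik, measured 2.89, 2.78 and 3.15 CPM in 4OHT, against 2.83, 2.61 and 2.53 CPM in DMSO (log2 fold change 0.14, SE 0.138, edgeR adjusted p = 0.681). 9030622O22Rik, a noncoding RNA gene 2.67 kb from Foxa2, lay between 0.136 and 0.52 CPM (edgeR adjusted p = 0.871). Foxa3 lies between Irf2bp1 and Sympk, at 6.51 kb and 0.84 kb. Irf2bp1 had a log2 fold change of -0.11 (edgeR adjusted p = 0.741) and Sympk one of 0.08 (edgeR adjusted p = 0.643).

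Genes with a pattern most like each member were ranked by the root mean square difference of centred log2 CPM over the 6 libraries, among 11349 genes averaging 1 CPM or more. For Foxa1 these were Ttc7b (0.0558), which encodes a subunit of a lipid kinase complex, Emp2 (0.0601), which encodes an epithelial membrane protein, and Wtip (0.0602), which encodes a LIM domain protein. Emp2 measured 140, 168 and 155 CPM in 4OHT, against 111, 124 and 91.4 CPM in DMSO. For Foxa2 they were Urod (0.0305), Hira (0.0324) and Utrn (0.0332), and for Foxa3 Zbtb8a (0.0511), Bcas3 (0.0542) and Ano10 (0.0558). By the same measure Foxa2 and Foxa3 differed by 0.108, Foxa1 and Foxa3 by 0.353, and Foxa1 and Foxa2 by 0.373. The measure uses the same 6 libraries as the comparison, and genes with little change over all of them are close to each other by construction.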

How the data were processed

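Polyadenylated RNA from 3 4OHT and 3 DMSO cultures was sequenced from directional libraries made with 250 ng of RNA, per the labels' protocols. STAR 2.4.0f1, bcl2fastq 1.8.4 and GRCm38 are named in the submitters' processing notes, and the counting program and its strand setting are not given in the sources used here. The authors deposited raw counts per gene, per the file headers, and each row of the table has at least 10 counts over the 6 libraries. The normalised score columns, which the authors deposited as rounded whole numbers, were not used for tests. A log2 fold change of the authors is printed from their deposited table, and their deposited p-values were used only to count the genes called higher in the authors' deposited table, 447 by edgeR and 239 by DESeq.

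Counts were analysed with edgeR 4.0.16 in R 4.3.3 (filterByExpr, TMM, quasi-likelihood F test without a block, Benjamini-Hochberg over 14544 genes, called at 0.05). The alternatives were a replicate block, DESeq2 1.42.0, limma-voom (limma 3.58.1), library totals alone, RLE size factors, other filters, and fits without each library or without replicate 3 of both groups. Deviations from group means correlated at 0.3, 0.33 and 0.43 between libraries with the same replicate number, across genes, and equal numbers were therefore treated as pairs, a choice that rests on these data and not on a label. The test without a block was kept as the main one, and the block is given where it changes a call. Counts at an unadjusted p under 0.05 are given per list without the share of all tested genes, which was not counted. They therefore do not show that a list differs from other genes. GENCODE M21 matched 18351 of 18448 gene identifiers and gave positions and merged exon lengths, and RefSeq gave promoter windows for all 3 members. Counting errors cover counting alone, while the SDs and SEs include the spread between libraries.

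The members and the gene lists (Foxa gut targets, Foxa liver targets, Groucho corepressors, endoderm transcription factors, other forkhead genes, and markers of goblet, enteroendocrine, Paneth, enterocyte, stem, tuft, gastric, proliferating, mesenchymal and immune cells) were chosen with earlier results of these data known. Named genes are the members, Hnf4a, up to 5 tested genes with the smallest p per list of targets and factors, the nearest neighbours, and the 3 genes most like each member, leaving out predicted genes. Pax6 and the marker genes were named after their values were seen. A gene that this rule names among the endoderm factors is not reported here.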

Additional observations from a re-analysis of the deposited data

How the results depend on the processing

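The number of genes called over the whole table was 132, against 1017 with the replicate block, 762 in DESeq2, 60 with a filter at 10 CPM and 4 to 601 when libraries were left out; the cause was not tested. Of the Foxa gut targets, 0 were called, against 1 with the replicate block and 0 to 2 when libraries were left out. Of the Foxa liver targets, 0 were called, against 2 with the replicate block, 1 in DESeq2 and 0 to 1 when libraries were left out. Of the endoderm factors, 1 was called (Hnf4a, the targeted gene), and 0 to 1 when libraries were left out. No other forkhead gene and no Groucho corepressor was called in any of the 15 fits. The log2 fold changes of the members stayed within 1 SD of the replicate spread in all 14 alternatives, from 0.43 to 0.64 for Foxa1, -0.23 to -0.07 for Foxa2 and -0.15 to 0.08 for Foxa3. The share of Foxa1 was 10.5 percentage points higher in 4OHT, and 8.53 to 12.7 when libraries were left out. The deviation of Foxa3 in DMSO replicate 3 was -0.04, and -0.09 with library totals alone. With the replicate block the log2 fold changes of the members were 0.56, -0.14 and -0.01 for Foxa1, Foxa2 and Foxa3. Depth limits Isl1, Pax6 and 9030622O22Rik, which had few counts.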

Other observations

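Markers of other epithelial cell types gave the following values beside those of the Foxa genes. Of 16 tested enterocyte markers 15 had a negative log2 fold change (median -0.53), 0 were called by edgeR without the replicate block and 0 by limma-voom, 4 fell in DESeq2, 6 had an unadjusted p under 0.05, all lower in 4OHT, and 5 fell with the block. Without DMSO replicate 3, 0 fell and the median was -0.13, and without replicate 3 of both groups 2 fell and the median was -0.33. Of all genes, 1.94% were called lower in DESeq2 and 3.0% with the block. The share was 0.587% without DMSO replicate 3 and 1.51% without replicate 3 of both groups. Of 10 tested genes on the Paneth list 1 rose (Nupr1) and 1 fell (Lyz1), with and without the block. The median log2 fold change of this list was -0.1, with 4 above and 6 below 0. Of 12 tested stem cell markers 1 fell without the block (Msi1), and 1 rose and 3 fell with it. Without DMSO replicate 3, 1 of them fell, and without replicate 3 of both groups 4 fell. The calls of Lyz1 and Msi1 were lost without 4OHT replicate 1, 2 or 3 or DMSO replicate 1 or 2, that of Msi1 also with library totals alone or a filter at 10 CPM, and that of Nupr1 without 4OHT replicate 3 or DMSO replicate 1 or 2. These 3 genes were named after their values were seen. Of 7 tested tuft markers and 16 tested proliferation genes 0 were called by edgeR with or without the block, by DESeq2 or by limma-voom, with 1 tuft marker higher and 0 proliferation genes at an unadjusted p under 0.05. Of 9 tested gastric and foregut genes 3 rose without the block, and 5 rose and 1 fell with it. Without 4OHT replicate 1 or DMSO replicate 1 or 2 the count of 3 became 0, without 4OHT replicate 2 or 3 it became 1, and without DMSO replicate 3 it became 4. Their summed level was 463, 318 and 499 CPM in 4OHT replicates 1, 2 and 3, against 279, 231 and 134 CPM in DMSO replicates 1, 2 and 3. The gastric sum, like Foxa1, did not overlap between the groups and was lowest in DMSO replicate 3. Within 4OHT they went opposite ways, as replicate 3 was the highest 4OHT library for the sum and the lowest for Foxa1. Replicate 2 was the lowest 4OHT library for the sum and the highest for Foxa1. Most of the sum in every library was Anxa10, at 290, 202 and 286 CPM in 4OHT, against 241, 189 and 108 CPM in DMSO. The groups of Anxa10 overlapped and it was not called (edgeR adjusted p = 0.439), so the sum mainly follows 1 gene. Of the 9 tested genes 7 had a log2 fold change above 0 and 2 below. What part these cell types have in the Foxa values was not tested.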
